A study of Homo sapiens with 13 samples.

Results

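The genes described here are 37 genes of the Fanconi anemia pathway and of homologous recombination, named by symbol in a list. The list was chosen with earlier results of these data known. All 37 were found among the 60591 genes of the deposited count table. RNA was sequenced from TE11 cells, labelled as human esophageal squamous cell carcinoma, after 48 h in 10 µM chloroquine with 25 µM 5-fluorouracil (combination, n = 3), 25 µM 5-fluorouracil (5-FU, n = 3), 10 µM chloroquine (n = 3) or 0.1% DMSO (vehicle, n = 4). Chloroquine builds up in lysosomes and stops autophagy at its last steps, and 5-FU, an analogue of uracil, starves cells of thymidylate and is built into nucleic acids. The series title names chloroquine as an enhancer of 5-FU in this cancer by way of p53 signaling, so the comparisons set each treatment against vehicle and the combination against each drug alone. The labels name 1 cell line and do not say whether replicates were separate cultures, so the p-values given here rest on a spread between samples that may be technical. The labels give DMSO for vehicle only, so whether treated cultures also had it is not known.

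The Fanconi anemia pathway repairs DNA whose strands are covalently crosslinked: a core complex acts as a ubiquitin ligase that, with the conjugating enzyme UBE2T, marks the FANCD2-FANCI clamp, and the marked clamp brings nucleases to the crosslink. The break that results is repaired by homologous recombination, in which the ends are resected, BRCA1, PALB2 and BRCA2 prepare the bared strand, and paralogs and accessory factors help it to invade the sister chromatid. Many of these genes are transcribed most in S phase under E2F factors, and inherited loss of several of them predisposes to bone marrow failure or to cancers of breast and ovary.

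Promoter sequences are shown for 3 members because they hold an E2F half-site and the genes differed in how they behaved across the treatments, as described below. The windows run from 250 bases before to 50 bases after the gene start in RefSeq (GRCh38.p14), matched by symbol for 33 of the 37 members. The letters searched were TTTCCCGC, TTTGGCGC, TTTCGCGC and TTTGCCGC on both strands, and capitals mark the match, which in all 3 lies on the strand opposite to the gene. FANCD2 (plus strand, chr3:10026187-10026486) encodes a subunit of the clamp, XRCC2 (minus strand, chr7:152676092-152676391) a recombination paralog and FANCA (minus strand, chr16:89816598-89816897) a core complex subunit.
FANCD2: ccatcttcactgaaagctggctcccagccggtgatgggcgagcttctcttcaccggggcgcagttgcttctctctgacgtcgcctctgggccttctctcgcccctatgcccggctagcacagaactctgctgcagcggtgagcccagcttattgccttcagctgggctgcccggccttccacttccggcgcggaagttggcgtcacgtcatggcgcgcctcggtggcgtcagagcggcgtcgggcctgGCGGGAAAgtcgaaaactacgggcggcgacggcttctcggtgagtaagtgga
XRCC2: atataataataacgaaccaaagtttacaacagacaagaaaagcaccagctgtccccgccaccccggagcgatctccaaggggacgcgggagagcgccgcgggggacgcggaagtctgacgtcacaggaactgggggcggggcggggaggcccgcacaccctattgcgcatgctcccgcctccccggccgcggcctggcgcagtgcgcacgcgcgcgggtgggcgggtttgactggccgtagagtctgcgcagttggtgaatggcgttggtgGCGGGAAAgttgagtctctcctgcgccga
FANCA: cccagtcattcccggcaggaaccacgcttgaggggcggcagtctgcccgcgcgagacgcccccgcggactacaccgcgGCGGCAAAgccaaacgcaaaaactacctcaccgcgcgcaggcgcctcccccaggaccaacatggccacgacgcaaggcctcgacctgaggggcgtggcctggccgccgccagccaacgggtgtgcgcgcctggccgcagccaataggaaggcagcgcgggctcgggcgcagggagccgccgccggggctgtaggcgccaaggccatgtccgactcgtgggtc
The first base of the match lay at position -2 from the gene start in FANCD2, 21 in XRCC2 and -172 in FANCA. Such a half-site was found in the promoters of 5 of 33 members (15.2%), namely EXO1, FANCA, FANCC, FANCD2 and XRCC2. Beside these, it was found in 3.99% of the 27305 genes with a RefSeq promoter, whether or not they were tested here. The CHR letters TTTGAA were found in 4 of 33 members (12.1%), beside 18.2% of all genes, and CCAAT in 14 of 33 (42.4%), beside 39.7%. A match is a run of letters and does not show that a factor binds there. The shares were not matched for the base composition of promoters.

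Library totals ran from 17834539 to 23679833 counts. Levels are given as CPM, read counts scaled to a common library size, and 19514 genes passed the filter on low counts. All 37 members passed it. FANCF was the lowest member, with 9 to 26 counts, and lay above the limit of the filter in 2 of 4 vehicle libraries and in all 9 treated ones, while the other 36 lay above it in every library, with at least 130 counts. Of 12 markers of basal squamous epithelium, 8 passed the filter and 3 had at most 10 counts in every library. Their summed level ran from 247 to 282 CPM with the combination, 265 to 287 CPM with 5-FU and 168 to 178 CPM with chloroquine, against 131 to 159.7 CPM in vehicle, and its part in the results was not tested. Of the defining ones, KRT5 had at most 2 counts, TP63 at most 3 and KRT14 at most 12 in any library, and 11 of the 13 squamous differentiation genes in the table had at most 10 counts everywhere. The epithelial keratin KRT18 had 747 to 1361. The keratin KRT8 had 357 to 389 counts with the combination, 275 to 337 with 5-FU and 64 to 73 with chloroquine, against 54 to 65 in vehicle. In vehicle 4, chloroquine 1 and 2, 5-FU 2 and combination 2, the collagen gene COL1A2 had 153 to 741 counts, against 1 to 7 in the other 8 libraries. The hemoglobin gene HBB had 203 counts in vehicle 4, 136 in chloroquine 1 and 88 in chloroquine 2, but 0 in 5-FU 2 and combination 2. These 5 libraries were thus not alike, though they are treated as 1 kind here. Summed blood markers ran from 8.34 to 9.83 CPM with the combination, 9.42 to 12.1 CPM with 5-FU and 7.06 to 19.7 CPM with chloroquine. In vehicle they were 24.5 CPM in vehicle 4 and 3.59 to 4.01 CPM in vehicle 1, 2 and 3. Summed fibroblast markers reached 13.9 to 32.4 CPM with the combination, 26.3 to 44.6 CPM with 5-FU and 11.8 to 97.1 CPM with chloroquine, against 9.96 to 125 CPM in vehicle. What part such RNA has in the results was not tested beyond fits without those 5 libraries or with a term for them. Counts without those 5 libraries, which leave 1 library of chloroquine, are given beside the counts below.

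Every treatment moved member genes both up and down, and 36 of the 37 (97.3%) were called in at least 1 comparison with vehicle, beside 79.5% of all genes tested. A gene was called where the adjusted p of edgeR's quasi-likelihood test (Benjamini-Hochberg over 19514 genes) was under 0.05. With the combination, 14 members were called higher, beside 28.1% of all genes tested, and 17 lower, beside 27.2%. With 5-FU, 17 were called higher, beside 30.8% of all genes, and 10 lower, beside 29.5%. With chloroquine, 7 were called higher, beside 20.3% of all genes, and 12 lower, beside 19.1%. In either direction, 31 members were called with the combination, beside 55.4% of all genes, 27 with 5-FU, beside 60.3%, and 19 with chloroquine, beside 39.4%. As shares of the members, the counts higher and lower are 37.8% and 45.9% with the combination, 45.9% and 27.0% with 5-FU, and 18.9% and 32.4% with chloroquine. The members' median log2 fold change was -0.12 with the combination, 0.10 with 5-FU and 0.012 with chloroquine, beside 0.0057 for all genes tested with the combination, 0.010 with 5-FU and 0.023 with chloroquine.

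BRCA1, BRCA2 and XRCC2 were called higher with each of the 3 treatments (8.11% of the members, beside 7.79% of all genes tested). FANCE, NBN and DNA2 were called lower with each, beside 8.71% of all genes tested. Nothing particular to these genes is read from either count. RBBP8, the resection factor also known as CtIP, was the 1 member called in no comparison, and its log2 fold change against vehicle was -0.095 ± 0.0706 (SE) with the combination, -0.062 ± 0.0706 with 5-FU and 0.069 ± 0.0704 with chloroquine. Its 13 libraries ran from 2723 to 3764 counts. These comparisons share the 4 vehicle libraries, so their values are given side by side.

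In the 8 libraries with little COL1A2, where chloroquine has 1 library, the counts higher and lower were 12 and 16 with the combination, 17 and 11 with 5-FU and 3 and 6 with chloroquine. Scaled by library size alone, they were 15 and 15 with the combination, 20 and 7 with 5-FU and 11 and 5 with chloroquine. That scaling moved the median of all genes by 0.15 with the combination, 0.19 with 5-FU and 0.095 with chloroquine, on the log2 scale, so the balance of higher and lower calls with 5-FU and with chloroquine depends on the scaling.

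**Figure D1:**
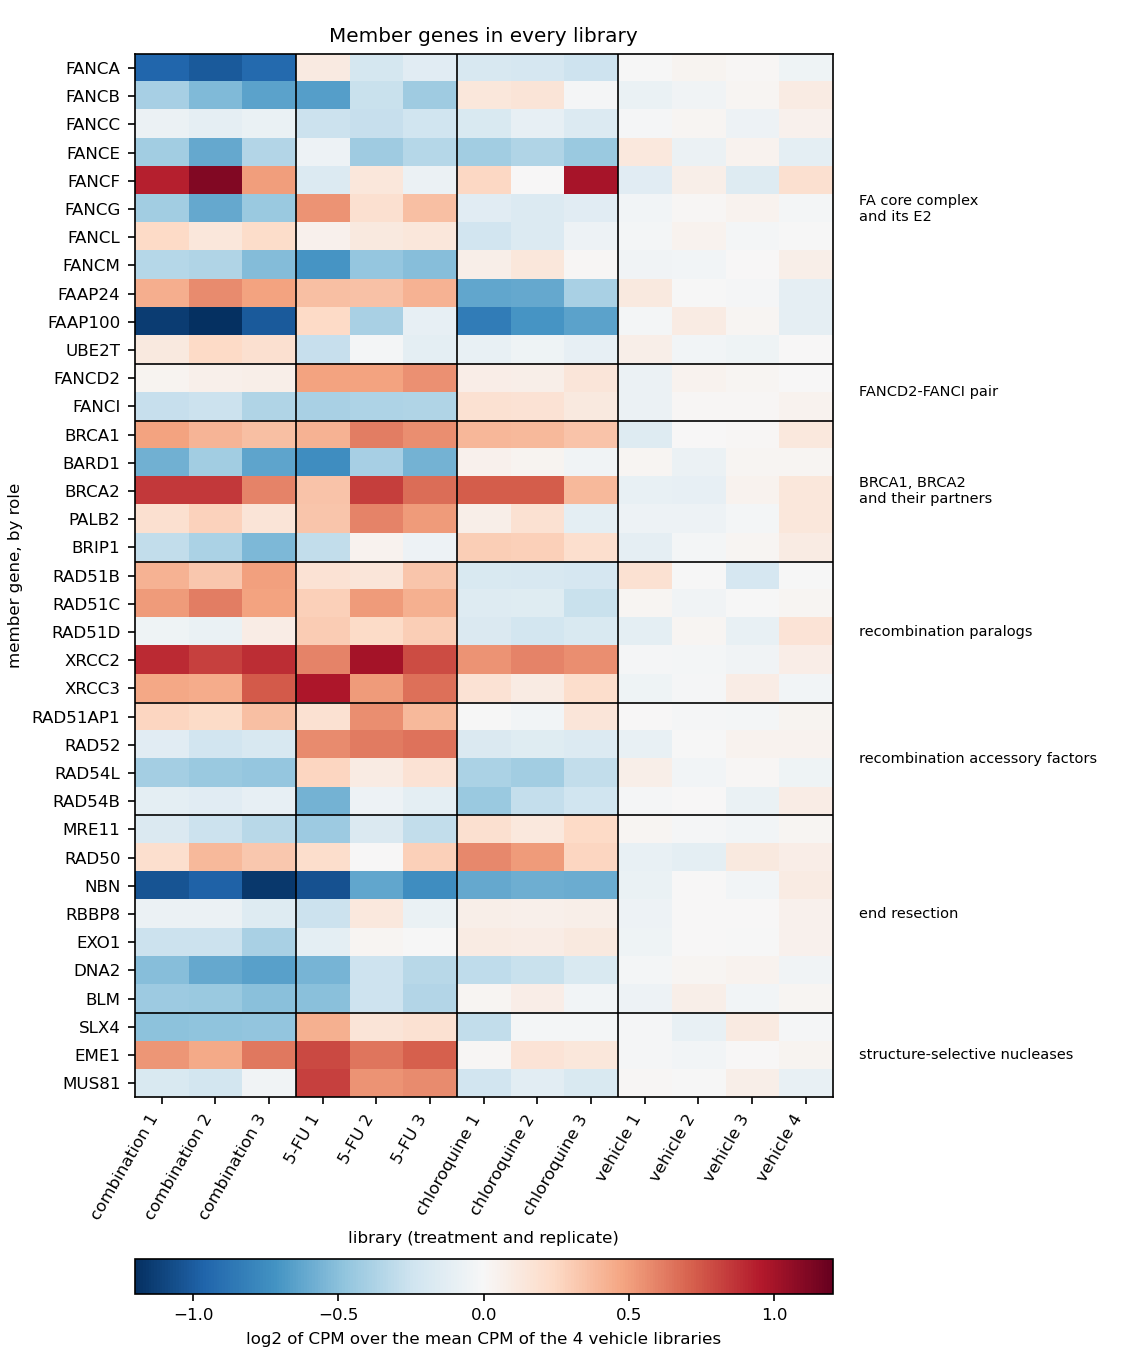
Each cell is the log2 of a member's CPM in 1 library (columns, by treatment and replicate) over its mean CPM in the 4 vehicle libraries; rows are the 37 members by role, blue is lower and red higher. NBN and DNA2 are blue and BRCA1, BRCA2 and XRCC2 red in all 9 treated libraries, while MUS81, RAD52 and SLX4 are red with 5-FU and not with the combination.

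**Figure D2:**
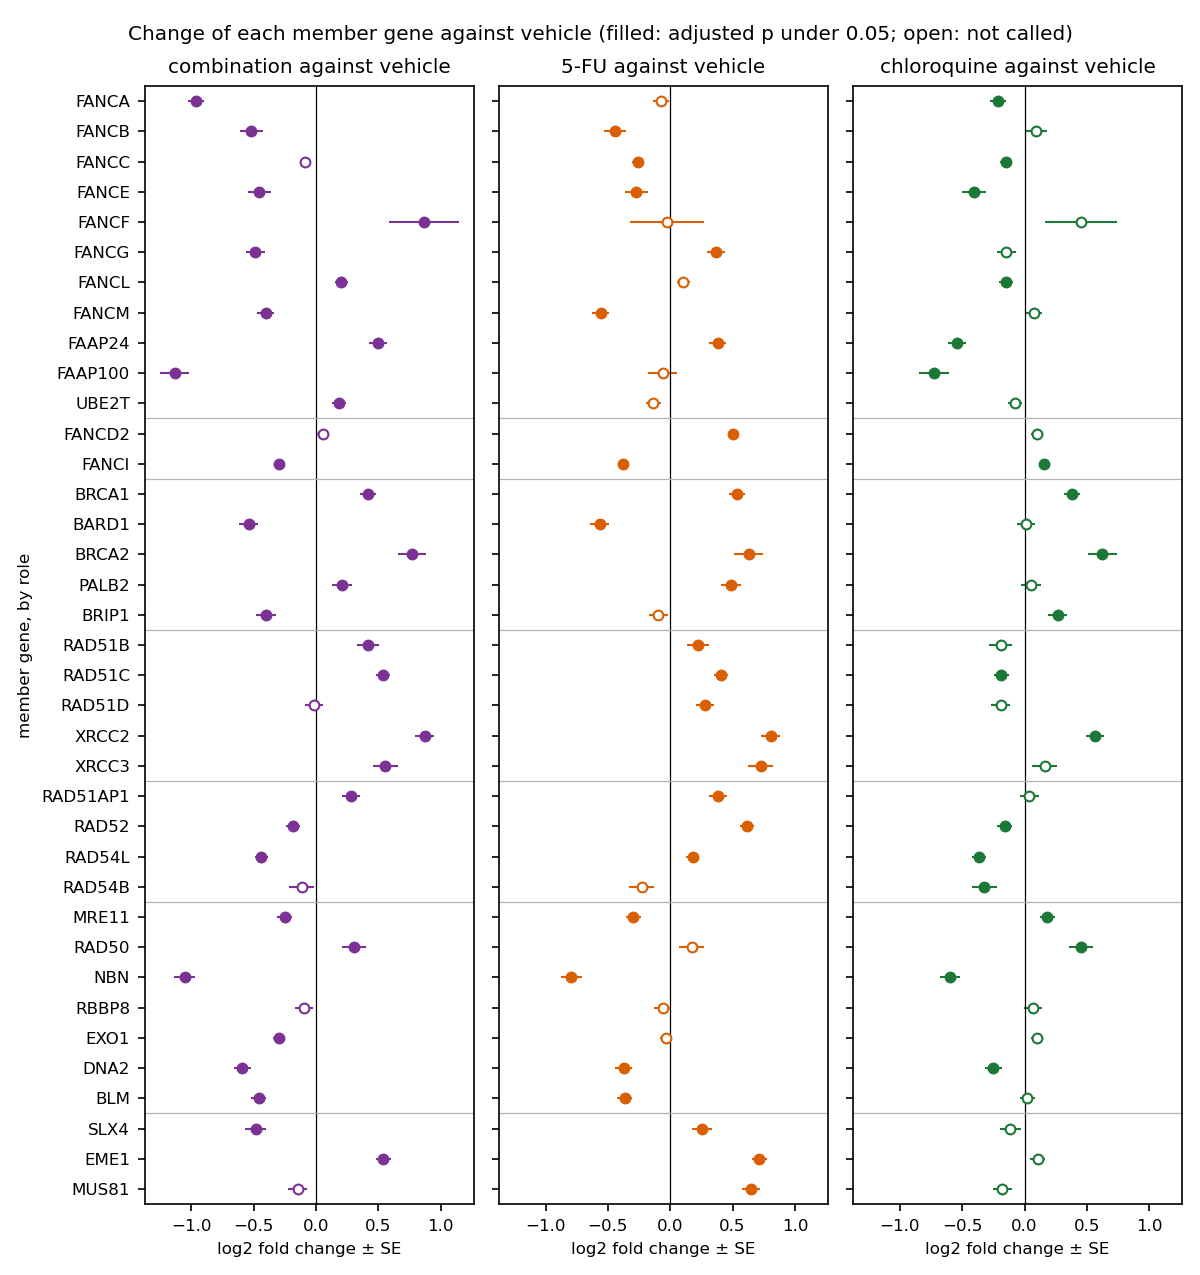
Points are log2 fold changes against vehicle and bars their SE for each of the 37 members (rows, by role), in 1 panel for each treatment; filled points have an adjusted p under 0.05. The 5 paralogs (RAD51B, RAD51C, RAD51D, XRCC2 and XRCC3) are filled to the right of 0 with 5-FU, and the largest falls with the combination are those of FAAP100, NBN and FANCA.

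Among the 11 genes of the core complex and its conjugating enzyme, 6 were called lower with the combination and 4 higher (54.5% and 36.4%, beside 27.2% and 28.1% of all genes tested). With 5-FU, 4 were called lower and 2 higher (36.4% and 18.2%, beside 29.5% and 30.8%). With chloroquine, 6 were called lower (54.5%, beside 19.1%) and 0 higher (beside 20.3%). FANCA and FANCG, which sit together in 1 module of the complex, were both much lower in the combination than with 5-FU alone. FANCA, the module's largest subunit, had 44.4, 42.5 and 44.8 CPM with the combination, 92.00, 73.98 and 77.9 CPM with 5-FU and 74.7, 74.4 and 71.9 CPM with chloroquine, against 85.3, 87.7, 86.6 and 82.8 CPM in vehicle. All 3 combination libraries lay below every other library, and 5-FU overlapped vehicle, with 5-FU 1 the highest of all 13. The log2 fold change was -0.96 ± 0.0673 in the combination against vehicle (0.513-fold, adjusted p = 3.36e-08), -0.89 ± 0.0707 against 5-FU and -0.75 ± 0.0710 against chloroquine, and -0.22 ± 0.0652 for chloroquine against vehicle. FANCG had 40.3, 34.97 and 39.5 CPM with the combination, 77.8, 61.1 and 68.8 CPM with 5-FU and 48.9, 47.9 and 48.7 CPM with chloroquine, against 52.3, 54.2, 55.2 and 52.8 CPM in vehicle. Its 5-FU libraries lay above and its combination libraries below all others, with log2 fold changes of 0.37 ± 0.0721 for 5-FU and -0.49 ± 0.0748 for the combination against vehicle, and -0.86 ± 0.0785 (adjusted p = 2.13e-06) for the combination against 5-FU. With the trend of each library on transcript GC content removed, the rise of FANCG with 5-FU was 0.17 and still called. Without 5-FU 1, the log2 fold change of FANCA with 5-FU was called lower, at -0.075 in all libraries and -0.18 without that one, and it was also called lower with the GC trend removed (-0.21). ZNF276, on the opposite strand, shares 23.6% of the exon bases of FANCA, and its log2 fold changes were -0.14 with the combination, 0.32 with 5-FU and 0.73 with chloroquine. The kit keeps strand, but no source used here says whether the counting used it, so reads of overlapping genes on opposite strands may have been mixed.

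The module that carries the ligase activity is made of FANCB, FANCL and FAAP100, and these 3 went separate ways. FAAP100, which stabilises the module, had 19.7, 17.8 and 21.6 CPM with the combination, 50.9, 33.1 and 40.4 CPM with 5-FU and 24.2, 26.5 and 27.8 CPM with chloroquine, against 42.4, 46.4, 43.9 and 40.3 CPM in vehicle. The combination libraries were the lowest and the chloroquine libraries next, both clear of vehicle, while 5-FU ran over and under vehicle. Log2 fold changes were -1.14 ± 0.120 (adjusted p = 1.93e-06) with the combination and -0.73 ± 0.118 with chloroquine, and -1.07 ± 0.126 for the combination against 5-FU, the lowest value of any member in each of these 3 comparisons. FANCL, the RING subunit that transfers ubiquitin, had 53.3, 49.6 and 52.5 CPM with the combination, 46.9, 48.9 and 49.4 CPM with 5-FU and 38.5, 40.4 and 43.3 CPM with chloroquine, against 44.4, 46.6, 44.4 and 45.01 CPM in vehicle. It was called higher with the combination (0.20 ± 0.0525) and lower with chloroquine (-0.15 ± 0.0536). FANCB, whose gene lies on the X chromosome, had 14.4, 13.1 and 12.1 CPM with the combination, 11.9, 15.7 and 14.04 CPM with 5-FU and 20.7, 20.99 and 18.8 CPM with chloroquine, against 17.9, 18.4, 19.2 and 20.2 CPM in vehicle. Combination and 5-FU libraries lay below all chloroquine and vehicle libraries, with log2 fold changes of -0.52 ± 0.0905 for the combination and -0.44 ± 0.0900 for 5-FU against vehicle, and -0.61 ± 0.0953 for the combination against chloroquine. The call of FANCL with chloroquine was lost without vehicle 1, 2, 3 or 4 or chloroquine 1 or 2 (-0.16 to -0.11), and that of FAAP100 in the combination against chloroquine (-0.41) was lost without chloroquine 3 or combination 2 (-0.36 to -0.33). FAAP100 was called lower with 5-FU without 5-FU 1 (-0.24), against -0.062 in all libraries. FAAP100 with the GC trend removed was called lower with 5-FU (-0.42), its value for the combination against 5-FU was -0.72 and still called, and its interaction was 0.064, beside -0.35 with the trend kept, neither called. VRK2, on the opposite strand, shares 18.7% of the exon bases of FANCL and had log2 fold changes of -0.42 with the combination and -0.58 with chloroquine.

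FANCC, FANCE and FANCF form the module that binds FANCD2. FANCE, the subunit that contacts FANCD2, had 14.4, 12.5 and 14.99 CPM with the combination, 18.3, 14.2 and 15.1 CPM with 5-FU and 14.4, 14.9 and 14.1 CPM with chloroquine, against 20.9, 18.2, 19.7 and 17.7 CPM in vehicle. Its combination and chloroquine libraries lay below all vehicle libraries, and 1 of 3 5-FU libraries lay within the vehicle range. The log2 fold changes against vehicle were -0.46 ± 0.0928 with the combination (adjusted p = 7.69e-04), -0.27 ± 0.0917 with 5-FU and -0.40 ± 0.0933 with chloroquine. FANCC had 43.5, 42.5 and 43.2 CPM with the combination, 38.1, 37.8 and 38.7 CPM with 5-FU and 40.3, 42.7 and 40.8 CPM with chloroquine, against 45.1, 46.5, 43.9 and 47.2 CPM in vehicle. Its falls were small, with log2 fold changes of -0.26 ± 0.0471 for 5-FU and -0.15 ± 0.0471 for chloroquine against vehicle, and it was called higher in the combination than with 5-FU (0.17 ± 0.0499). The chloroquine call of FANCC was lost without vehicle 2 or 4 or chloroquine 1 (-0.14 to -0.13), and the 5-FU call of FANCE was lost without vehicle 1 or 5-FU 2 or 3 (-0.24 to -0.20). FANCF, with few counts, read 1.04, 1.17 and 0.767 CPM with the combination, 0.484, 0.598 and 0.518 CPM with 5-FU and 0.643, 0.543 and 1.07 CPM with chloroquine, against 0.495, 0.571, 0.486 and 0.619 CPM in vehicle. The combination libraries lay above all vehicle and 5-FU libraries, and the log2 fold changes of 0.86 ± 0.280 against vehicle (adjusted p = 0.0168) and 0.89 ± 0.298 against 5-FU (adjusted p = 0.0292) rest on at most 26 counts a library. The first was lost without combination 1 or 2 (0.73 to 0.82), and the second without 5-FU 1 or 3 or combination 1 or 2 (0.75 to 0.86).

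FANCM and FAAP24 anchor the complex on DNA, FANCM as a translocase and FAAP24 as its partner, and they moved in opposite directions with 5-FU. FAAP24 had 19.9, 21.8 and 20.5 CPM with the combination, 18.8, 18.7 and 19.7 CPM with 5-FU and 9.55, 9.59 and 11.2 CPM with chloroquine, against 15.9, 14.6, 14.5 and 13.7 CPM in vehicle. The combination and 5-FU libraries lay above every vehicle library and the chloroquine libraries below, and the log2 fold changes were 0.50 ± 0.0696 with the combination, 0.38 ± 0.0700 with 5-FU and -0.54 ± 0.0755 with chloroquine. Between the combination and chloroquine alone the difference was 1.04 ± 0.0774 (2.06-fold, adjusted p = 1.03e-07), the largest rise of any member in that comparison. FANCM had 32.5, 32.1 and 28.8 CPM with the combination, 25.2, 29.8 and 28.9 CPM with 5-FU and 43.2, 45.3 and 41.5 CPM with chloroquine, against 39.95, 40.3, 41.3 and 43.3 CPM in vehicle. It fell to 0.679-fold with 5-FU (-0.56 ± 0.0679, adjusted p = 6.11e-06) and was lower with the combination by -0.41, with no overlap with vehicle in either. UBE2T, the conjugating enzyme of the pathway, had 110.2, 119.6 and 115 CPM with the combination, 83.8, 99.4 and 93.4 CPM with 5-FU and 95.4, 98.05 and 94.9 CPM with chloroquine, against 106, 99.3, 98.00 and 102 CPM in vehicle. The combination libraries lay above all others, and the log2 fold changes were 0.18 ± 0.0579 against vehicle, 0.32 ± 0.0620 against 5-FU and 0.26 ± 0.0621 against chloroquine. The first of these was not called without combination 2 (0.15), and UBE2T was called lower with 5-FU without 5-FU 2 (-0.20), against -0.14 in all libraries.

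The 2 subunits of the clamp moved apart under 5-FU. FANCD2 had 115, 117 and 118 CPM with the combination, 158, 158 and 165 CPM with 5-FU and 119, 119 and 125 CPM with chloroquine, against 107, 116, 115 and 113 CPM in vehicle. All 3 libraries with 5-FU alone lay above every other library, and those of the combination overlapped vehicle. FANCD2 rose 1.42-fold with 5-FU (log2 0.51 ± 0.0442, adjusted p = 2.33e-07) and was lower by -0.45 ± 0.0475 in the combination than with 5-FU (adjusted p = 6.87e-06). It was not called for the combination against vehicle, where its approximate 95% interval was -0.034 to 0.14. FANCI, the other subunit, had 251, 255 and 237 CPM with the combination, 231, 234 and 236 CPM with 5-FU and 344, 341 and 329.6 CPM with chloroquine, against 289, 306, 306 and 313 CPM in vehicle. The combination and 5-FU libraries lay below all vehicle libraries and those of chloroquine above, with log2 fold changes of -0.30 ± 0.0423 with the combination, -0.38 ± 0.0424 with 5-FU and 0.16 ± 0.0419 with chloroquine. The ratio of FANCD2 to FANCI counts was 0.473 ± 0.0227 with the combination, 0.684 ± 0.0126 with 5-FU and 0.357 ± 0.0189 with chloroquine, against 0.371 ± 0.00828 in vehicle (mean ± SD). The ratios within pairs given here are not corrected for gene length, were chosen after the values were seen, and carry no test. POLG shares 5.90% of the exon bases of FANCI on the opposite strand.

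BRCA1 and BRCA2 rose with each treatment, BARD1 did not follow BRCA1, and BRIP1 and PALB2 differed between treatments. BRCA1, a ubiquitin ligase that promotes resection and brings in PALB2, had 208, 198 and 192 CPM with the combination, 199, 229 and 219 CPM with 5-FU and 197, 195 and 189 CPM with chloroquine, against 134, 149, 150.4 and 163 CPM in vehicle. All 9 treated libraries lay above all 4 vehicle libraries. The log2 fold changes were 0.42 ± 0.0636 with the combination (adjusted p = 6.10e-05), 0.53 ± 0.0635 with 5-FU (adjusted p = 5.10e-06) and 0.38 ± 0.0638 with chloroquine (adjusted p = 3.38e-04). BRCA2, a mediator of strand exchange, had 51.5, 51.5 and 43.3 CPM with the combination, 36.4, 50.9 and 45.6 CPM with 5-FU and 47.5, 47.4 and 37.4 CPM with chloroquine, against 26.9, 26.6, 29.5 and 31.3 CPM in vehicle. No treated library reached down to vehicle, and the log2 fold changes were 0.77 ± 0.115 with the combination (1.70-fold), 0.63 ± 0.115 with 5-FU (1.55-fold) and 0.63 ± 0.116 with chloroquine (1.54-fold). For the combination against 5-FU, BRCA1 differed by -0.11 ± 0.0678 and BRCA2 by 0.14 ± 0.119 on the log2 scale, and neither was called.

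BARD1 is the obligate partner of BRCA1 in the ligase. It had 25.8, 28.7 and 24.8 CPM with the combination, 22.9, 29.1 and 25.96 CPM with 5-FU and 39.8, 39.2 and 37.2 CPM with chloroquine, against 39.1, 36.5, 39.01 and 39.1 CPM in vehicle. Combination and 5-FU libraries lay below all chloroquine and vehicle libraries, and the log2 fold changes against vehicle were -0.54 ± 0.0759 with the combination, -0.57 ± 0.0761 with 5-FU (adjusted p = 1.64e-05) and 0.012 ± 0.0741 with chloroquine, the last not called. BRCA1 counts divided by BARD1 counts gave 7.57 ± 0.608 with the combination, 8.34 ± 0.434 with 5-FU and 5.01 ± 0.0701 with chloroquine, against 3.89 ± 0.332 in vehicle. PALB2, which bridges BRCA1 and BRCA2, had 48.99, 51.6 and 47.7 CPM with the combination, 53.99, 64.7 and 61.01 CPM with 5-FU and 45.03, 48.6 and 39.5 CPM with chloroquine, against 40.9, 41.03, 42.1 and 46.97 CPM in vehicle. It was highest with 5-FU (0.49 ± 0.0789 against vehicle, adjusted p = 9.41e-05), lower in the combination than with 5-FU (-0.28 ± 0.0837) and higher in the combination than in vehicle (0.21 ± 0.0797). The last was not called without vehicle 1, 2 or 3, chloroquine 1, 5-FU 3 or combination 1, 2 or 3 (0.17 to 0.23), and the one before it without 5-FU 2 or combination 3 (-0.25 to -0.22). BRCA2 counts divided by PALB2 counts gave 0.986 ± 0.0714 with the combination, 0.736 ± 0.0570 with 5-FU and 0.992 ± 0.0559 with chloroquine, against 0.669 ± 0.0226 in vehicle. BRIP1, a helicase that binds BRCA1, had 67.7, 63.96 and 57.1 CPM with the combination, 67.9, 85.8 and 79.6 CPM with 5-FU and 102, 102 and 95.8 CPM with chloroquine, against 77.00, 82.00, 84.3 and 89.1 CPM in vehicle. Chloroquine libraries lay above vehicle and combination libraries below it. Its log2 fold changes were -0.40 ± 0.0806 with the combination and 0.26 ± 0.0789 with chloroquine against vehicle, and in the combination -0.31 ± 0.0854 against 5-FU and -0.67 ± 0.0852 against chloroquine. Its chloroquine call was lost without chloroquine 1 or 2 (0.25), and that of the combination against 5-FU without combination 3 (-0.24).

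**Figure D3:**
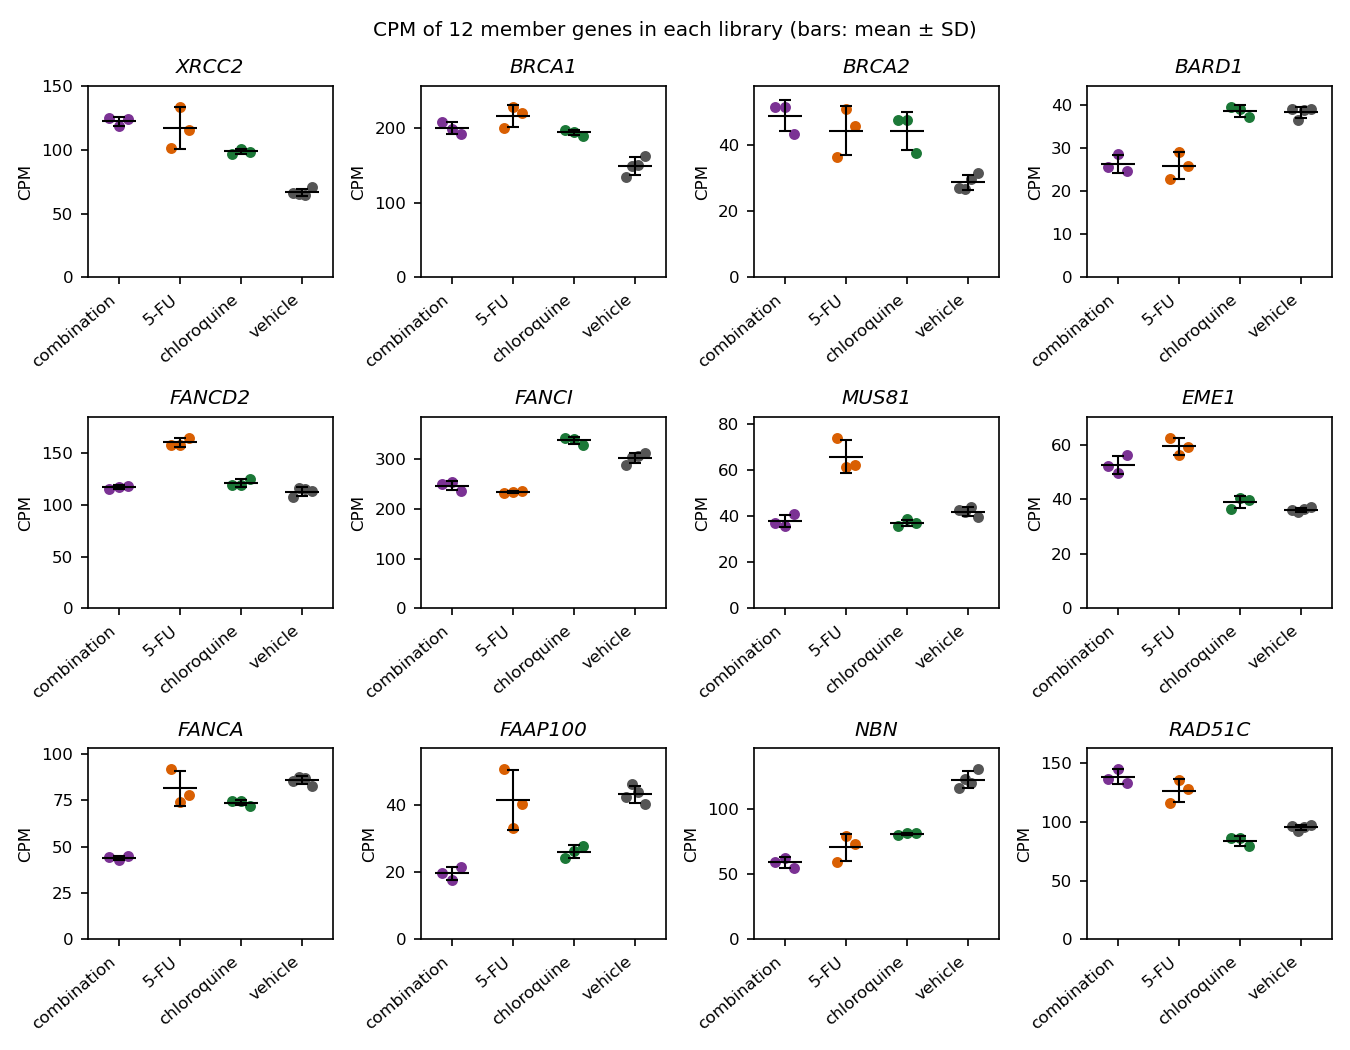
CPM (vertical axis, from 0) of 12 members in each library, with the combination, 5-FU, chloroquine and vehicle from left to right; points are libraries and bars the mean ± SD. BRCA1, BRCA2 and XRCC2 are higher in every treated library than in vehicle, FANCD2 and MUS81 are high with 5-FU alone, and BARD1 is low in both groups that had 5-FU.

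The recombination paralogs RAD51B, RAD51C, RAD51D, XRCC2 and XRCC3, which act in complexes joined by RAD51C, were all 5 called higher with 5-FU and 4 of them higher with the combination, while with chloroquine 1 was higher and 1 lower. Of all genes tested, 30.8% were called higher with 5-FU and 28.1% with the combination, and with chloroquine 20.3% were higher and 19.1% lower. XRCC2 had 125, 118 and 124 CPM with the combination, 101, 134 and 115 CPM with 5-FU and 97.1, 101 and 98.7 CPM with chloroquine, against 66.1, 65.6, 64.8 and 70.8 CPM in vehicle. Treated libraries all lay above vehicle, and combination libraries also lay above those of chloroquine. Its log2 fold changes were 0.87 ± 0.0743 with the combination (1.83-fold, adjusted p = 2.29e-07), 0.80 ± 0.0744 with 5-FU and 0.57 ± 0.0750 with chloroquine, the largest rise among members above 1 CPM with the combination and with 5-FU. RAD51C had 136, 146 and 134 CPM with the combination, 116, 136 and 129 CPM with 5-FU and 86.1, 86.2 and 79.5 CPM with chloroquine, against 96.8, 92.6, 95.4 and 97.2 CPM in vehicle. The order was the combination and 5-FU above vehicle and vehicle above chloroquine, with no overlap between these 3 bands. Log2 fold changes were 0.54 ± 0.0574 with the combination, 0.41 ± 0.0575 with 5-FU and -0.19 ± 0.0588 with chloroquine, and 0.72 ± 0.0621 (adjusted p = 3.92e-07) for the combination against chloroquine. RAD51B had 11.3, 10.6 and 11.9 CPM with the combination, 9.54, 9.33 and 10.6 CPM with 5-FU and 7.44, 7.42 and 7.35 CPM with chloroquine, against 9.62, 8.45, 7.34 and 8.40 CPM in vehicle. It was called higher with the combination (0.41 ± 0.0883) and with 5-FU (0.22 ± 0.0893), and higher in the combination than with chloroquine (0.60 ± 0.0956). The call with 5-FU was lost without vehicle 2, 3 or 4, chloroquine 1, 2 or 3, 5-FU 1 or 3 or combination 1, 2 or 3 (0.16 to 0.24).

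XRCC3, the paralog that pairs with RAD51C alone, had 43.3, 42.7 and 52.3 CPM with the combination, 61.5, 44.6 and 49.7 CPM with 5-FU and 35.4, 33.6 and 36.3 CPM with chloroquine, against 30.3, 31.1, 33.5 and 30.6 CPM in vehicle. All combination and 5-FU libraries lay above chloroquine and vehicle, with log2 fold changes of 0.55 ± 0.0991 for the combination and 0.73 ± 0.0985 for 5-FU against vehicle (adjusted p = 1.79e-05). With the GC trend removed, the 5-FU value was 0.42 and still called. KLC1, on the opposite strand, shares 76.7% of the exon bases of XRCC3 and had log2 fold changes of 0.16 with the combination and 0.46 with 5-FU, so reads of XRCC3 are uncertain if strand was not used. RAD51D ran 15.2 to 17.1 CPM with the combination, 18.9 to 19.9 CPM with 5-FU and 13.8 to 14.3 CPM with chloroquine, against 14.8 to 18.1 CPM in vehicle. It was called higher with 5-FU (0.28 ± 0.0711) and lower in the combination than with 5-FU (-0.29 ± 0.0754). The ratio of XRCC2 counts to RAD51D counts, both subunits of 1 paralog complex, was 7.68 ± 0.402 with the combination, 5.99 ± 1.01 with 5-FU and 7.01 ± 0.256 with chloroquine, against 4.16 ± 0.247 in vehicle. The chloroquine call of RAD51C was lost without chloroquine 3 (-0.17). With 1 library left out, RAD51B was called lower with chloroquine without vehicle 3 (-0.25), as was RAD51D without vehicle 1 or 3, 5-FU 1, 2 or 3 or combination 1, 2 or 3 (-0.23 to -0.19), and in the combination against 5-FU RAD51C was called higher without 5-FU 2 (0.18), XRCC2 higher without 5-FU 2 (0.17) and XRCC3 lower without 5-FU 2 (-0.27).

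Of the 4 accessory factors, 3 were called higher with 5-FU, beside 30.8% of all genes tested, and 3 lower with chloroquine, beside 19.1%. RAD52, which anneals single strands, had 13.3, 12.5 and 12.8 CPM with the combination, 21.6, 22.5 and 23.01 CPM with 5-FU and 12.9, 13.3 and 13.1 CPM with chloroquine, against 13.7, 14.6, 15.1 and 15.1 CPM in vehicle. The 3 libraries of 5-FU alone stood above all 10 others, and the log2 fold change was 0.61 ± 0.0554 against vehicle (1.53-fold, adjusted p = 3.16e-07). In the combination RAD52 was lower than with 5-FU by -0.80 ± 0.0596 (adjusted p = 3.74e-07). RAD54L, a translocase that acts during strand invasion, had 41.9, 40.9 and 40.1 CPM with the combination, 66.4, 59.4 and 62.8 CPM with 5-FU and 42.8, 41.5 and 45.4 CPM with chloroquine, against 58.1, 54.3, 55.98 and 53.7 CPM in vehicle. 5-FU libraries lay just above vehicle, while combination and chloroquine libraries lay below it. Log2 fold changes were -0.44 ± 0.0550 with the combination, 0.18 ± 0.0535 with 5-FU and -0.36 ± 0.0551 with chloroquine, and -0.62 ± 0.0579 for the combination against 5-FU. With the GC trend removed, the 5-FU value was 0.10 (adjusted p = 0.0508). LRRC41, on the opposite strand, shares 25.1% of the exon bases of RAD54L and had log2 fold changes of 0.34 with the combination, 0.71 with 5-FU and -0.57 with chloroquine.

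RAD54B, a translocase related to RAD54L, had 13.5, 13.4 and 13.7 CPM with the combination, 9.93, 14.1 and 13.5 CPM with 5-FU and 10.8, 12.04 and 12.4 CPM with chloroquine, against 14.6, 14.7, 13.9 and 15.6 CPM in vehicle. Chloroquine libraries lay below vehicle (-0.32 ± 0.101), and against vehicle the values of -0.12 ± 0.0991 with the combination and -0.23 ± 0.0998 with 5-FU were not called. FSBP shares 59.1% of the exon bases of RAD54B on the same strand, so counts of the pair may be split between them. RAD51AP1, which stimulates strand invasion, ran 125 to 137 CPM with the combination, 121 to 157 CPM with 5-FU and 104 to 118 CPM with chloroquine, against 105 to 109 CPM in vehicle. It was called higher with the combination (0.28 ± 0.0737) and with 5-FU (0.38 ± 0.0735), and higher in the combination than with chloroquine (0.24 ± 0.0789). The smaller calls in this group depended on single libraries. RAD52 with chloroquine (-0.16) was not called without vehicle 2, 3 or 4 or chloroquine 1, 2 or 3 (-0.18 to -0.15), nor with the combination (-0.19) without combination 2 (-0.17). RAD54B with chloroquine was not called without chloroquine 1 (-0.26), and RAD51AP1 in the combination against chloroquine without chloroquine 1 or 2 or combination 3 (0.20 to 0.22). RAD54B was called lower with 5-FU without 5-FU 2 or 3 (-0.32 to -0.29), and RAD51AP1 lower in the combination than with 5-FU without 5-FU 1 (-0.19).

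Of the 7 resection genes, 5 were called lower with the combination (71.4%, beside 27.2% of all genes tested) and 1 higher (14.3%, beside 28.1%). With 5-FU, 4 were called lower (57.1%, beside 29.5%) and 0 higher (beside 30.8%). With chloroquine, 2 were called lower and 2 higher (28.6% each, beside 19.1% and 20.3%). NBN, which recruits the ATM kinase to the MRE11-RAD50-NBN complex, had 59.6, 62.4 and 54.7 CPM with the combination, 59.2, 79.4 and 72.9 CPM with 5-FU and 79.7, 81.3 and 81.1 CPM with chloroquine, against 116, 123, 119.7 and 131 CPM in vehicle. Every treated library lay below every vehicle library, and the combination libraries below those of chloroquine. Log2 fold changes were -1.05 ± 0.0840 with the combination (0.482-fold, adjusted p = 1.18e-07), -0.79 ± 0.0829 with 5-FU and -0.60 ± 0.0825 with chloroquine, and -0.26 ± 0.0888 for the combination against 5-FU. The last was lost without 5-FU 2 or 3 or combination 1 or 3 (-0.27 to -0.17). MRE11, the nuclease of the complex, had 102, 96.5 and 91.4 CPM with the combination, 85.4, 102 and 93.9 CPM with 5-FU and 132, 126 and 136 CPM with chloroquine, against 117, 114, 112 and 117 CPM in vehicle. It was lower with the combination (-0.25 ± 0.0612) and with 5-FU (-0.30 ± 0.0613) and higher with chloroquine (0.18 ± 0.0605). With the GC trend removed, the 5-FU value of MRE11 was -0.14 and still called, and its chloroquine call was lost without vehicle 2 or 3, chloroquine 1 or 3, 5-FU 3 or combination 2 (0.14 to 0.18). NBN counts divided by MRE11 counts gave 0.610 ± 0.0335 with the combination, 0.749 ± 0.0480 with 5-FU and 0.617 ± 0.0262 with chloroquine, against 1.06 ± 0.0539 in vehicle. RAD50, the ATPase that tethers ends, had 12.2, 13.8 and 13.2 CPM with the combination, 12.2, 10.6 and 12.9 CPM with 5-FU and 15.7, 15.1 and 12.6 CPM with chloroquine, against 9.89, 9.76, 11.4 and 11.1 CPM in vehicle. Chloroquine and combination libraries lay above vehicle, with log2 fold changes of 0.30 ± 0.0961 for the combination and 0.46 ± 0.0960 for chloroquine, and the combination call was lost without combination 2 (0.25). Another annotated gene, AC116366.3, on the same strand shares 79.7% of the exon bases of RAD50 and had 1 count in all libraries together. How reads in the shared bases were counted is not known, so the level and the calls of RAD50 are uncertain.

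Long-range resection is carried out by EXO1 or by DNA2 with the helicase BLM. DNA2 had 82.02, 76.1 and 74.2 CPM with the combination, 79.2, 97.9 and 92.5 CPM with 5-FU and 94.5, 96.7 and 103 CPM with chloroquine, against 114, 119, 120.0 and 114 CPM in vehicle. All treated libraries lay below vehicle, with log2 fold changes of -0.59 ± 0.0678 for the combination, -0.38 ± 0.0672 for 5-FU and -0.25 ± 0.0671 for chloroquine. With the GC trend removed, DNA2 differed from vehicle by -0.22 with 5-FU and from 5-FU by -0.42 in the combination, beside -0.22 with the trend kept, and that call against 5-FU was lost without 5-FU 2 or 3 or combination 2 or 3 (-0.20 to -0.15). EXO1, an exonuclease, had 158, 158 and 145 CPM with the combination, 174, 192 and 188 CPM with 5-FU and 202, 201 and 205 CPM with chloroquine, against 183, 189.6, 189 and 196 CPM in vehicle. Combination libraries lay below all others (-0.30 ± 0.0490 against vehicle and -0.27 ± 0.0520 against 5-FU). BLM ran 75.97 to 79.2 CPM with the combination, 75.6 to 90.5 CPM with 5-FU and 105 to 113 CPM with chloroquine, against 103 to 112 CPM in vehicle, and was called lower with the combination (-0.46 ± 0.0605) and with 5-FU (-0.36 ± 0.0603). With 1 library left out, RBBP8 was called lower with 5-FU without 5-FU 2 (-0.17) and lower in the combination than with chloroquine without 5-FU 1 or 2 (-0.15), RAD50 higher with 5-FU without 5-FU 2 (0.24), and BLM lower in the combination than with 5-FU without 5-FU 1 (-0.17).

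All 3 nuclease genes were called higher with 5-FU, beside 30.8% of all genes tested, and lower in the combination than with 5-FU, beside 18.3%. MUS81, the catalytic subunit of an endonuclease that cuts branched DNA, had 36.9, 35.96 and 40.8 CPM with the combination, 74.1, 61.2 and 62.4 CPM with 5-FU and 35.9, 38.6 and 36.96 CPM with chloroquine, against 42.5, 41.9, 44.1 and 39.4 CPM in vehicle. 5-FU libraries stood above all others and combination libraries overlapped vehicle, with log2 fold changes of 0.65 ± 0.0715 for 5-FU against vehicle (1.57-fold, adjusted p = 2.35e-06) and -0.80 ± 0.0770 for the combination against 5-FU (adjusted p = 3.42e-06). With the GC trend removed, the rise with 5-FU was 0.39 and still called. EME1, the partner of MUS81, had 52.2, 49.4 and 56.1 CPM with the combination, 62.6, 56.3 and 59.3 CPM with 5-FU and 36.5, 40.5 and 39.8 CPM with chloroquine, against 35.9, 35.3, 36.4 and 37.1 CPM in vehicle. Combination libraries stayed above chloroquine and vehicle but below 5-FU, with log2 fold changes of 0.54 ± 0.0592 for the combination and 0.72 ± 0.0589 for 5-FU against vehicle, and -0.18 ± 0.0618 for the combination against 5-FU. The ratio of EME1 to MUS81 counts was 1.39 ± 0.0234 with the combination, 0.905 ± 0.0549 with 5-FU and 1.05 ± 0.0300 with chloroquine, against 0.862 ± 0.0522 in vehicle. SLX4, the scaffold that holds these nucleases, had 16.5, 16.6 and 16.7 CPM with the combination, 31.1, 25.8 and 26.2 CPM with 5-FU and 18.9, 22.8 and 22.7 CPM with chloroquine, against 22.9, 21.7, 25.00 and 22.9 CPM in vehicle. 5-FU libraries lay above vehicle and combination libraries below it, with log2 fold changes of 0.26 ± 0.0812 for 5-FU and -0.48 ± 0.0849 for the combination against vehicle, and -0.74 ± 0.0884 for the combination against 5-FU.

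The rise of SLX4 with 5-FU was not called without 5-FU 1 (0.16), nor with the GC trend removed (0.074, adjusted p = 0.350). The difference of EME1 between the combination and 5-FU was not called without vehicle 3, 5-FU 1 or 3 or combination 1 or 2 (-0.18 to -0.13), nor with the replicate number as a block (-0.18, adjusted p = 0.0547), the 1 call the block changed between these 2 groups. MUS81 was called lower with chloroquine without 5-FU 1 or 2 (-0.19) and lower with the combination than in vehicle without 5-FU 1 (-0.16). CFL1 shares 13.9% of the exon bases of MUS81, and LRRC59 16.4% of those of EME1, both on the opposite strand. With 5-FU, CFL1 had a log2 fold change of -0.25 and LRRC59 of -0.24.

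Adding chloroquine to 5-FU lowered more of these genes than it raised. In the combination against 5-FU, 15 members were called lower, beside 18.3% of all genes tested, and 3 higher, beside 20.2%, and the members' median log2 fold change was -0.10, beside 0.025 over all genes tested. Of the 17 members called higher with 5-FU, 9 were called lower when chloroquine was added: FANCG, FANCD2, PALB2, RAD51D, RAD52, RAD54L, SLX4, EME1 and MUS81. That is 52.9% of the 17, beside 36.3% of the 6003 genes called higher with 5-FU among all genes tested. Both comparisons use the 5-FU libraries, so nothing particular to these genes is read from the share. The 3 called higher were FANCC, FANCF and UBE2T. In the 8 libraries with little COL1A2 the counts were 11 lower and 2 higher, and with the GC trend removed 22 lower and 4 higher. The count higher was 5 without 5-FU 2.

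For many of these genes the effect of chloroquine differed between cells that had 5-FU and cells that did not. The effect of chloroquine with 5-FU (combination against 5-FU) and without it (chloroquine against vehicle) uses separate libraries. It was called for 18 members with 5-FU, beside 38.5% of all genes, and for 19 without, and 8 were called in both, 6 of them in the same direction, which is 33.3% of the calls with 5-FU and 31.6% of those without. Over all genes tested the shares in the same direction were 24.7% of the calls with 5-FU and 24.2% of those without. FANCC and BRIP1 were called in opposite directions, beside 1760 of the 3620 genes called in both over all genes tested. FANCC was higher with 5-FU present (0.17) and lower without it (-0.15), and BRIP1 was lower with 5-FU present (-0.31) and higher without it (0.26).

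The difference between both effects was tested as the interaction, and 22 members were called, beside 39.9% of all genes tested. Of these, 14 were called lower, beside 19.3% of all genes, and 8 higher, beside 20.6%. A value below 0 means that chloroquine lowered the gene more, or raised it less, with 5-FU than without. The lowest values were -0.71 ± 0.107 for FANCG (adjusted p = 1.49e-04), -0.67 ± 0.0957 for FANCA (adjusted p = 9.23e-05), -0.64 ± 0.0835 for RAD52, -0.63 ± 0.121 for SLX4 and -0.62 ± 0.107 for MUS81. BRIP1 stood at -0.57 ± 0.116 and FANCD2 at -0.55 ± 0.0652. XRCC2 (-0.50 ± 0.109), BRCA1 (-0.49 ± 0.0932) and BRCA2 (-0.49 ± 0.166) rose with each drug but by less with both than the sum of the single effects on the log2 scale. The remaining values below 0 were -0.36 for EXO1, -0.33 for PALB2, -0.28 for EME1 and -0.25 for RAD54L. Above 0 stood FAAP24 (0.66 ± 0.105, adjusted p = 2.13e-04), RAD54B (0.43 ± 0.147), UBE2T (0.40 ± 0.0853), RAD51B (0.38 ± 0.131), NBN (0.34 ± 0.121), FANCC (0.32 ± 0.0686), RAD51C (0.31 ± 0.0848) and FANCL (0.25 ± 0.0773).

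Several interaction calls were lost when 1 library was left out. BRCA2 was not called without vehicle 1 or 2, chloroquine 1 or 2, 5-FU 2 or 3 or combination 3 (-0.46 to -0.37). PALB2 was not called without vehicle 1, 2 or 3, chloroquine 1 or 2, 5-FU 2 or 3 or combination 1 or 3 (-0.32 to -0.26). EME1 was not called without chloroquine 2 or 3 or combination 1 or 2 (-0.26 to -0.22), nor RAD54L without chloroquine 3, 5-FU 3 or combination 2 or 3 (-0.24 to -0.21). Among the values above 0, FANCL was not called without chloroquine 1 (0.21), RAD51B without vehicle 1 or 2, chloroquine 1 or 2, 5-FU 2 or combination 1 or 3 (0.31 to 0.39), RAD54B without vehicle 4, chloroquine 1 or combination 3 (0.38 to 0.43) and NBN without vehicle 2 or 4, chloroquine 1 or 2 or combination 1 or 2 (0.31 to 0.35). Conversely, FANCE was called higher without 5-FU 1 (0.35), FAAP100 lower without 5-FU 2 (-0.47), XRCC3 lower without 5-FU 2 or combination 3 (-0.43 to -0.42) and RAD50 lower without chloroquine 3 or 5-FU 2 (-0.39). In the 8 libraries with little COL1A2, 11 were called lower and 3 higher, and scaled by library size alone, 20 lower and 2 higher. Without chloroquine 1 the count higher was 4. With the GC trend removed the counts were 21 lower and 5 higher, and the value of MUS81 was -0.31, of FANCG -0.46 and of SLX4 -0.39, all still called.

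**Figure D4:**
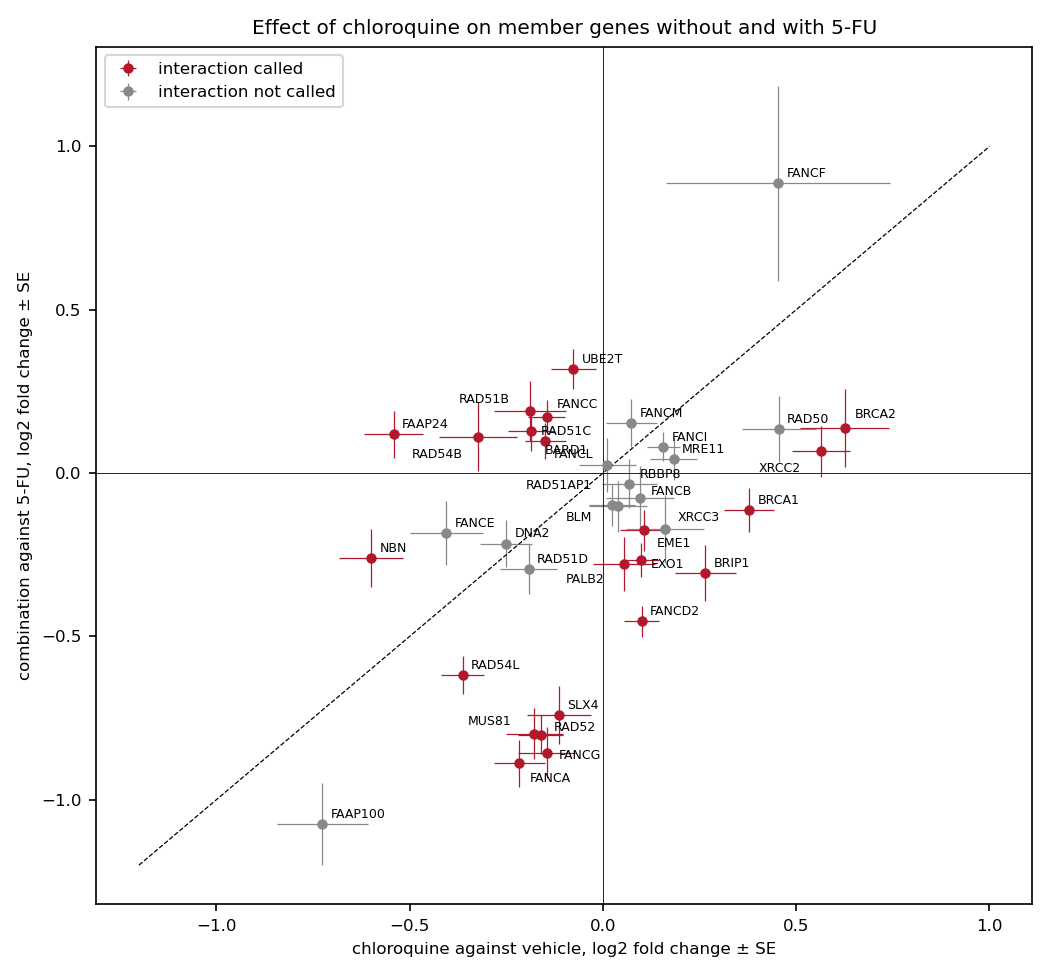
Log2 fold change of each member with chloroquine alone against vehicle (horizontal) and with chloroquine added to 5-FU (combination against 5-FU, vertical), with bars of SE; the dashed line marks equal effects and red points are the 22 members with a called interaction. FANCA, FANCG, RAD52, MUS81 and SLX4 lie far below the line, and FAAP24 above it.

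The effect of 5-FU was measured with and without chloroquine in the same way. In the combination against chloroquine, 14 members were called lower, beside 25.7% of all genes tested, and 9 higher, beside 24.8%. Of the 23 called there, beside 50.6% of all genes, and the 27 called for 5-FU against vehicle, 17 were called in both and 15 in the same direction, which is 65.2% of the calls with chloroquine present and 55.6% of those without it. For all genes tested, the shares in the same direction were 58.2% with chloroquine present and 48.8% without it. FANCG and SLX4 were called in opposite directions, beside 1314 of the 7056 genes called in both over all genes tested. FANCG differed by -0.34 ± 0.0796 with chloroquine present and 0.37 ± 0.0721 without, and SLX4 by -0.37 ± 0.0903 with it and 0.26 ± 0.0812 without. The 9 members higher in the combination than with chloroquine were FAAP24, RAD51C, RAD51B, EME1, XRCC3, FANCL, XRCC2, UBE2T and RAD51AP1, with log2 fold changes of 0.24 to 1.04. The 5 lowest were FANCA (-0.75 ± 0.0710), BRIP1 (-0.67 ± 0.0852), FANCB (-0.61 ± 0.0953), BARD1 (-0.55 ± 0.0803) and BLM (-0.48 ± 0.0642). FANCM (-0.48 ± 0.0711) and MRE11 (-0.44 ± 0.0650) followed with FANCI (-0.45 ± 0.0450) and NBN (-0.45 ± 0.0887).

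Base composition moved with some of these results. The members' transcripts had a median GC content of 42.8%, beside 48.4% over the 18760 tested genes with a value. Within the 5-FU group, the deviation of genes from the group mean correlated with GC content across those genes with Spearman's rho of 0.643 in 5-FU 1, -0.597 in 5-FU 2 and -0.241 in 5-FU 3, and within the combination with 0.390 in combination 3, -0.288 in combination 2 and -0.174 in combination 1. In the chloroquine and vehicle libraries rho lay between -0.199 and 0.146. Across the 37 members, rho between GC content and the log2 fold change was -0.40 for the combination against 5-FU, beside -0.39 over all genes with a value, and 0.38 for 5-FU against vehicle, beside 0.24. These genes share libraries and are not independent. Of the 6 members with the lowest values in the combination against 5-FU, RAD52, the fourth lowest, had a GC content of 47.7%, below the median of all genes. The others lay above it, with 65.6% for FAAP100, 55.4% for FANCA, 58.1% for FANCG, 60.6% for MUS81 and 57.6% for SLX4. The part of base composition in the results was not tested beyond the values with the GC trend removed, under which 7 of the 140 member calls over the 6 comparisons were lost, 26 others were made and no call changed direction.

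**Figure D5:**
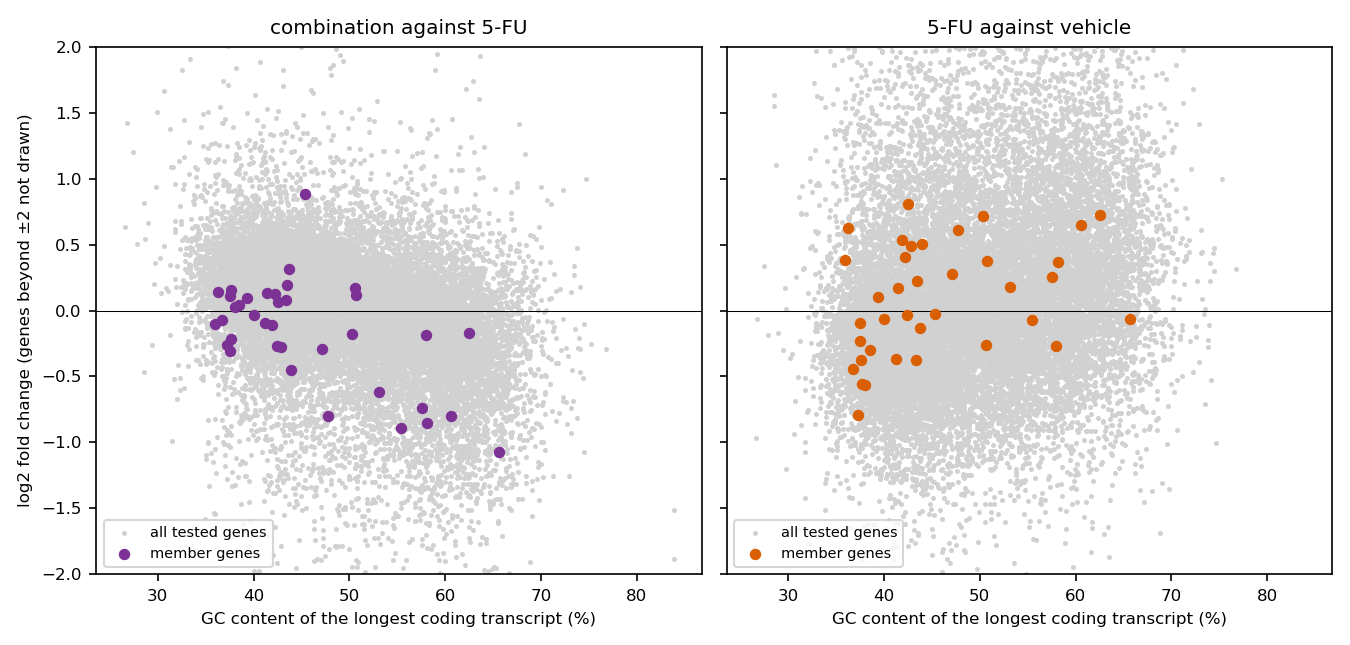
GC content of each gene's longest coding transcript (horizontal, %) and log2 fold change (vertical) for the combination against 5-FU and for 5-FU against vehicle; grey points are the tested genes and coloured points the 37 members. In the first panel FAAP100, MUS81, FANCG, SLX4 and FANCA lie at the lower right.

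Across the 37 members, rho between transcript length and the log2 fold change was -0.56 for the combination against chloroquine, beside -0.12 over all genes with a value, 0.31 for chloroquine against vehicle, beside 0.11, and -0.30 for the interaction, beside -0.093. The part of transcript length in the results was not tested.

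Other genes of crosslink repair and recombination, 36 of them outside the members, were also split. Higher and lower counts were 7 and 14 with the combination (19.4% and 38.9%, beside 28.1% and 27.2% of all genes tested). They were 8 and 15 with 5-FU (22.2% and 41.7%, beside 30.8% and 29.5%) and 5 and 6 with chloroquine (13.9% and 16.7%, beside 20.3% and 19.1%). For the combination against 5-FU they were 7 and 10 (19.4% and 27.8%, beside 20.2% and 18.3%). RECQL5, a helicase that restrains recombination, rose by 1.03 ± 0.0707 with 5-FU and was lower by -0.90 ± 0.0757 in the combination than with 5-FU. TONSL, which with MMS22L works at stalled forks, rose by 0.79 ± 0.0974 with 5-FU and was lower by -1.27 ± 0.107 in the combination. BABAM2, a subunit of the BRCA1-A complex, had log2 fold changes of -1.25 ± 0.0617 with the combination and -1.06 ± 0.0609 with 5-FU, and MMS22L had -0.80 ± 0.0728 with the combination and -0.54 ± 0.0718 with 5-FU.

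Nonhomologous and alternative end joining, the pathways that join ends without a template, were covered by 19 genes. With the combination 5 were called higher and 6 lower (26.3% and 31.6%, beside 28.1% and 27.2% of all genes tested). With 5-FU 6 were higher and 8 lower (31.6% and 42.1%, beside 30.8% and 29.5%). With chloroquine 1 was higher and 10 lower (5.26% and 52.6%, beside 20.3% and 19.1%). LIG3, the ligase of alternative end joining, had log2 fold changes of -1.203 ± 0.0615 with the combination and -0.82 ± 0.0604 with chloroquine. POLQ, the polymerase of that pathway, was the 1 gene of the list higher with chloroquine (0.50 ± 0.0709). SHLD1, a subunit of the shieldin complex that limits resection, rose by 0.87 ± 0.111 with 5-FU, and TP53BP1, which recruits shieldin, had -1.07 ± 0.0607 with the combination.

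S phase genes are given because recombination is used mainly in S and G2 phase. Of 19, 2 were called higher and 15 lower with the combination (10.5% and 78.9%, beside 28.1% and 27.2% of all genes tested). With 5-FU 4 were higher and 10 lower (21.1% and 52.6%, beside 30.8% and 29.5%). With chloroquine 5 were lower (26.3%, beside 19.1%) and 0 higher (beside 20.3%). Their median log2 fold change was -0.30 with the combination, -0.19 with 5-FU and -0.12 with chloroquine, beside the medians of all genes given above. POLA1, the catalytic subunit of DNA polymerase alpha, had log2 fold changes of -1.36 ± 0.0609 with the combination and -1.33 ± 0.0608 with 5-FU, and CDT1, a licensing factor, of 0.55 ± 0.105 with 5-FU. These libraries are of whole cultures, in which fewer cells in a phase of the cycle and less RNA per cell cannot be told apart.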

How the data were processed

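Total RNA of 13 TE11 libraries was sequenced with a directional kit, per the labels' protocols. The authors deposited raw read counts per gene and library as 1 table with human gene symbols. DESeq (no version) and the mouse build GRCm38 appear in the submitters' processing notes, although the symbols are human, so no coordinates of the count table are printed. Aligner, counting tool and use of strand: not given in the sources used here. Groups came from the labels. Member genes and lists were chosen with earlier results of these data known.

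Genes were filtered with filterByExpr, scaled by TMM and fitted with edgeR 4.0.16 (limma 3.58.1, R 4.3.3) in 1 quasi-likelihood model with a mean per group over all 13 libraries; 6 contrasts were tested with Benjamini-Hochberg adjustment over 19514 genes, and calls were made under 0.05. Tested genes held 99.8% or more of every library's counts. The SE of a log2 fold change was its absolute value over the square root of the test's F value. The 95% interval was taken from that SE with a normal distribution, which makes it too narrow for so few libraries. The pipeline was tested on simulated data. Values in every library are given for FANCD2, BRCA1 and BRCA2, for the 4 called members that rose most and the 4 that fell most in each comparison of 2 groups (mean of at least 1 CPM), and for every member called in the interaction; FANCF, FANCI and MRE11 were added after their values were seen. Of the other gene lists at most 2 risers and 2 fallers are named, and 1 gene of the lists is not reported here. Overlaps, GC content and length came from GENCODE 29, and promoters from RefSeq GRCh38.p14. No replicate pair differed by less than sampling noise. Deviations from group means of libraries with the same number were correlated by more than 0.1 in each of the 3 pairs for the combination and 5-FU (0.341, 0.743 and 0.339). That held for no other groups, and libraries with different numbers were not compared in this way. The labels do not say what a number stands for. The main fit did not pair libraries, and the number entered only as a block in the alternatives below.

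Alternatives were scaling by RLE or by library size alone, DESeq2 1.42.0 (Wald test), limma-voom, a stricter filter (10 CPM in 3 libraries) or none, fits of the compared groups alone, the replicate number as a block, a term for the 5 libraries with at least 50 COL1A2 counts or their removal, a log2 limit of 0.5, leaving out each library and, added after the data were seen, removal of each library's GC trend without and with the block.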

Additional observations from a re-analysis of the deposited data

Results flagged for a closer look

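For 22 members the effect of chloroquine differed between cultures with 5-FU and cultures without it, by the interaction test of edgeR at an adjusted p under 0.05. The interaction is the log2 fold change of the combination against 5-FU minus that of chloroquine against vehicle. It lay below 0 for FANCG (-0.71), FANCA (-0.67), RAD52 (-0.64), SLX4 (-0.63), MUS81 (-0.62), BRIP1 (-0.57), FANCD2 (-0.55), XRCC2 (-0.50), BRCA1 (-0.49), BRCA2 (-0.49), EXO1 (-0.36), PALB2 (-0.33), EME1 (-0.28) and RAD54L (-0.25). It lay above 0 for FAAP24 (0.66), RAD54B (0.43), UBE2T (0.40), RAD51B (0.38), NBN (0.34), FANCC (0.32), RAD51C (0.31) and FANCL (0.25).

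In the vehicle group, the 1 with 4 libraries, Dixon's ratio flagged a library of BARD1. Vehicle 2 had 36.5 CPM, against 39.0 to 39.1 CPM in the other 3. Dixon's ratio is the gap to the nearest library over the whole range, here 0.97. It is high because the other 3 nearly coincide, and the spread is small (mean 38.4 CPM, SD 1.27). BARD1 was the 1 member flagged of 37 examined. Whether chance alone would give 1 flag among so many was not tested.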

How the results depend on the processing

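Of 140 member calls over the 6 comparisons, 97 held under each of the 25 alternatives other than the log2 limit, 43 were lost under at least 1, and none changed direction. Among these 25, removal of the 5 libraries with at least 50 COL1A2 counts, which leaves 1 of chloroquine, ended the most calls. With a term for those 5 libraries instead, 3 of the 140 calls were lost and 7 others were made. The counts of members called higher and lower ran over the following values when each library was left out in turn: 10 to 14 and 16 to 18 for the combination against vehicle, 15 to 18 and 9 to 12 for 5-FU against vehicle, 5 to 7 and 8 to 15 for chloroquine against vehicle, 2 to 5 and 11 to 16 for the combination against 5-FU, 8 to 10 and 13 to 15 for the combination against chloroquine, and 4 to 9 and 11 to 15 for the interaction. With a log2 limit of 0.5 they were 6 and 6 for the combination, 8 and 3 for 5-FU and 2 and 3 for chloroquine against vehicle, 1 and 7 for the combination against 5-FU, 3 and 4 for it against chloroquine, and 1 and 7 for the interaction. Library size alone gave 11 and 5 for chloroquine against vehicle and 2 higher for the interaction. The 8 libraries with little COL1A2 gave 3 and 6 for chloroquine against vehicle and 3 higher for the interaction. Without a filter on low counts, 1 was higher for the combination against 5-FU, and a filter at 10 CPM left 4 higher for the interaction. GC trend removal left 5 higher for the interaction, without and with the replicate block. The cause of these shifts was not tested. The 8 libraries leave 1 of chloroquine and fewer residual degrees of freedom. In that fit, having fewer libraries and having less RNA of other tissues cannot be told apart.

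Over the members and comparisons, 127 alternative values, of 44 results, had the other sign; none of the 44 was called at first, and 9 of the 127 were called under the alternative: EXO1 with 5-FU against vehicle, 0.16 by library size alone and 0.085 with the GC trend removed; and, with the GC trend removed, without and with the block, for the combination against 5-FU, BARD1 (-0.17 and -0.17), XRCC3 (0.13 and 0.13) and MRE11 (-0.15 and -0.15); and DNA2 in the interaction without the block (-0.16). The replicate block ended 7 of the 140 calls and changed no other between the combination and 5-FU than that of EME1 (-0.18). In the other comparisons, where deviations were not correlated in every pair, the block ended the calls of FANCC (-0.13), FANCL (-0.15) and RAD52 (-0.14) with chloroquine. It also ended those of RAD51B with 5-FU (0.22) and in the interaction (0.38), and of RAD52 with the combination (-0.17). FANCF, at 9 to 26 counts, is the member that depth limits most.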
